A study of Mus musculus with 24 samples.

Results

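Direct targets of the transcription factor p53 that answer to DNA damage were followed in the RNA of bone marrow cells after spaceflight. The 10 genes were Cdkn1a and Ccng1 of the cell cycle, Gadd45a of arrest and repair, Bax and Bbc3 of apoptosis, Mdm2 of feedback on p53, and Trp53inp1, Sesn2, Phlda3 and Zmat3 of other stress functions, and they were chosen by name. All 10 were found among the 54752 genes of the table, and 8 of them were among the 12373 genes tested, which had more than 1 TPM (transcript abundance per length, scaled to the same sum in each library) in at least 1 library. The 2 others, Phlda3 and Zmat3, stayed below 1 TPM in every library. The marrow came from 24 male C57BL/6 mice with a library for each mouse. GC-WT mice were wild type and stayed on the ground, FL-WT mice were wild type and spent 31 days in space, GC-KO mice were knockouts of Nrf2 kept on the ground, and FL-KO mice were knockouts of Nrf2 that flew, with 6 mice in each group. Nrf2 is a transcription factor of antioxidant genes, encoded by Nfe2l2. Flight mice were 8 weeks old when they were brought to the launch site, 3 weeks before launch, and marrow was taken 2 days after landing, so the RNA shows the marrow after return and not in orbit. The paper states that flight and ground mice could not be sampled at 1 site, and the ground mice were kept in Japan. Flight and the place of collection therefore cannot be told apart in these data. The cells were frozen before RNA was isolated. The table holds TPM and no read counts, so the depth of each library is unknown.

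p53 is made all the time and destroyed at once through its own target Mdm2, a ubiquitin ligase. DNA breaks activate the kinases ATM and ATR, which free p53 from Mdm2, and p53 then switches on genes that halt the cell cycle, kill the cell or repair the damage. Blood progenitors in the marrow are among the cells most sensitive to radiation, and PUMA, the product of Bbc3, is known as a main killer of irradiated progenitors, while p21, the product of Cdkn1a, holds damaged cells in arrest. Ionising radiation is a known part of the space environment.

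On GRCm38, with the Ensembl gene IDs of the table, Cdkn1a (ENSMUSG00000023067.14) lies on the plus strand at chr17:29090976-29100727, Ccng1 (ENSMUSG00000020326.7) on the minus strand at chr11:40748552-40755311 and Gadd45a (ENSMUSG00000036390.8) on the minus strand at chr6:67035096-67037457. Of the apoptosis genes, Bax (ENSMUSG00000003873.11) lies on the minus strand at chr7:45461697-45466898 and Bbc3 (ENSMUSG00000002083.13) on the plus strand at chr7:16308393-16318205. Mdm2 (ENSMUSG00000020184.15) lies on the minus strand at chr10:117688875-117710758. Trp53inp1 (ENSMUSG00000028211.11) lies on the plus strand at chr4:11156431-11174379, Sesn2 (ENSMUSG00000028893.8) on the minus strand at chr4:132492032-132510501, Phlda3 (ENSMUSG00000041801.5) on the plus strand at chr1:135766119-135769136 and Zmat3 (ENSMUSG00000027663.12) on the minus strand at chr3:32334792-32366014. All are values per whole gene, and Cdkn1a, Bax, Sesn2 and Gadd45a overlap another annotated gene.

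The p53 protein binds pairs of decamers with a known consensus. RefSeq promoter windows of 300 bases on GRCm38.p6, from 250 bases before to 50 bases after an annotated start, were at hand for 8 of the 10 genes, and 5 of these 8 held at least 1 exact match to the decamer consensus. Of all 32851 windows, 8.36% held 1, and of all 27025 genes with a window, 9.55% did. The stretches of 60 bases around the matches of Cdkn1a, Mdm2, Bax and Ccng1 are shown because they hold the matched letters and lie outside the annotated gene. They are written 5′ to 3′ on the strand of the gene, and capitals mark the match.
Cdkn1a, chr17:29090892-29090951, plus strand: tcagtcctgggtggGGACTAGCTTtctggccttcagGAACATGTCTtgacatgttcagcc
Mdm2, chr10:117710910-117710969, minus strand: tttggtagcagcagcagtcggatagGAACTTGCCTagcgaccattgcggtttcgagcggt
Bax, chr7:45467065-45467124, minus strand: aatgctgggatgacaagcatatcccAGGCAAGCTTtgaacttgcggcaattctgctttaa
Ccng1, chr11:40755437-40755496, minus strand: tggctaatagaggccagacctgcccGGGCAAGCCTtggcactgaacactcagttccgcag
Cdkn1a held 2 matches, 73 and 51 bases before the upstream of its 2 annotated starts, which lies 2790 bases ahead of the other. Mdm2, Bax and Ccng1 held a match 186, 201 and 185 bases before the start, and Gadd45a held a match 40 bases before it. The windows of Bbc3, Phlda3 and Sesn2 held none, which says only that these letters are not in those windows. The core that Nrf2 recognises with its small Maf partners, TGACNNNGC, searched on both strands, was found in 12.4% of all windows and in those of Sesn2, 36 bases before the start, and of the downstream start of Cdkn1a, where it lies past the start. A match to letters is a description and shows no binding in these cells.

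Nfe2l2, the gene of Nrf2, served as a check of the genotype. It was at 17.05, 21.4 and 26.06 TPM (lowest, median and highest of 6 mice) in GC-WT mice and at 3.6, 4.89 and 7.18 TPM in GC-KO mice. Among mice that flew, wild-type mice had 11.39, 19.2 and 27.26 TPM and FL-KO mice 2.22, 3.1 and 4.31 TPM. All Nrf2-KO mice lay below all wild-type mice on the ground and in flight (p = 0.00216 for each by an exact permutation of rank sums, two-sided, the smallest that 6 mice against 6 allow). At TPM as deposited most tested genes had lower values in both flight groups and both knockout groups, and the median over all tested genes, as a log2 fold change, was -0.24 for flight in wild-type mice, -0.29 for flight in Nrf2-KO mice, -0.22 for genotype on the ground and -0.25 for genotype after flight. These 4 comparisons are FL-WT vs. GC-WT, then FL-KO against GC-KO, GC-KO against GC-WT and lastly FL-KO against FL-WT. Size factors, the median ratio of a library's genes to their average over libraries, ran from 0.64 to 0.9028 in FL-KO mice and from 1.061 to 1.53 in GC-WT mice. Dividing each library by its factor (median-of-ratios scaling) brought these 4 medians to between -0.00119 and 0.0254. Calls of the members are therefore given at TPM as deposited and after this scaling. Markers of erythroid, B progenitor, neutrophil, monocyte, T and NK, megakaryocyte and stem cells were all present, and in bulk marrow fewer cells of a type and less RNA per cell cannot be told apart.

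The 10 genes spanned a wide range of levels. Gadd45a was the most abundant in all 4 groups, with a GC-WT level of 32.6 ± 6.43 TPM (SD, n = 6), and Trp53inp1 followed with 22.2 ± 3.15 TPM (SD, n = 6). Bax at 15.3 ± 3.21, Ccng1 at 13.5 ± 2.6 and Mdm2 at 9.63 ± 1.58 TPM (SD, n = 6 for each) came next, and each of these first 5 genes overlapped with its neighbour in the order. Sesn2 stood apart from both of its neighbours at 4.99 ± 0.822 TPM (SD, n = 6). Bbc3 at 2.26 ± 0.274 and Cdkn1a at 2.19 ± 0.457 TPM (SD, n = 6 for each) overlapped, and so did Phlda3 at 0.472 ± 0.0906 and Zmat3 at 0.462 ± 0.119 TPM (SD, n = 6 for each). Thus Cdkn1a and Bbc3, the best known arrest and death genes of the set, lay far below Gadd45a in every group. Part of the spread within a group went along with the library. In FL-WT mice, mouse 5 was the lowest for 8 of the 10 genes and mouse 7 the highest for 6, and their size factors were 0.7286 and 1.373. In GC-KO mice, mouse 11 was the highest for 9 of the 10 genes, with a size factor of 1.323.

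**Figure D1:**
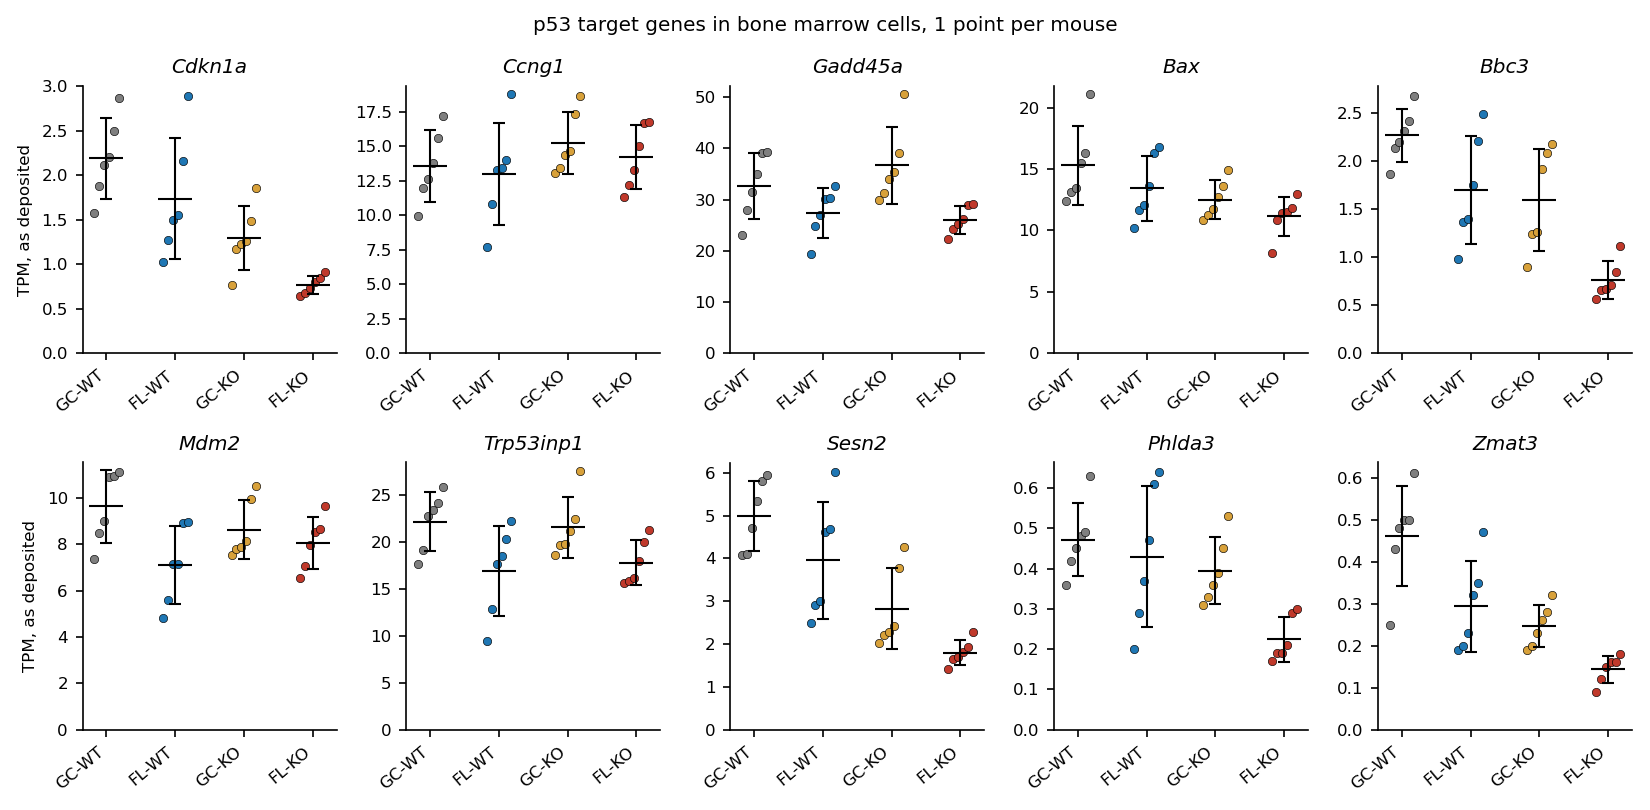
TPM as deposited (linear axis from 0) of the 10 p53 target genes in the 4 groups, with 1 point for each mouse and the mean ± SD of 6 mice as a black line with bars. Cdkn1a, Bbc3 and Sesn2 step down towards FL-KO mice, whereas for Ccng1, Mdm2 and Trp53inp1 the points of the 4 groups overlap.

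The comparison of flight and ground in wild-type mice asked whether these damage genes were raised 2 days after a stay in space. None was called higher at TPM as deposited. In FL-WT vs. GC-WT, all 8 tested genes had a log2 fold change below 0 at TPM as deposited, from -0.41 for Mdm2 and Trp53inp1 to -0.08 for Ccng1, and their median of -0.27 lay beside -0.24 for all tested genes. None of the 8 was a DEG, a gene with a Benjamini-Hochberg adjusted p under 0.1 in limma and a fold change of at least 2, while 0.938% of all tested genes were lower DEGs and 0.0647% higher DEGs, and 3 of the 8 had an unadjusted p under 0.05. With the adjusted p alone, 3 of the 8 were lower and 0 were higher, where 39% of all tested genes were lower and 0.994% higher. This count of 3 moved to 7 without 5 small RNAs. It moved to 5 with the GC and length trend removed, without GC-WT mouse 3 or without FL-WT mouse 7. With a pseudocount of 0.1 it was 2, and with quantile normalization 0. It was 1 with both groups fitted alone or without FL-WT mouse 5 or mouse 6. Leaving out any other library gave between 2 and 4. With no filter, Mdm2 and Trp53inp1 were the lower ones of the 8, and Zmat3 was also lower (log2 fold change -0.18, limma adjusted p = 0.0317). The upper end of the 95% interval of the fold change was at most 1.18 for the 8 genes at TPM as deposited, and at most 1.42 after median-of-ratios scaling.

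Mdm2, Trp53inp1 and Bbc3 were the 3 of 8 members called lower for flight in wild-type mice at TPM as deposited. Of all tested genes, 39% were called lower there, so the count of members is near that share. By the exact two-sided permutation test, unadjusted, p was 0.026 for Mdm2, 0.0649 for Trp53inp1 and 0.132 for Bbc3. Mdm2, the ubiquitin ligase that destroys p53, was at 7.34, 9.94 and 11.11 TPM (lowest, median and highest of 6) in GC-WT mice and at 4.83, 7.14 and 8.94 TPM in FL-WT mice. The ranges overlapped, with 4 of 6 FL-WT mice below every GC-WT mouse (log2 fold change -0.41 ± 0.13 SE, limma adjusted p = 0.0269). Trp53inp1, a stress protein that helps p53 to be phosphorylated and takes part in autophagy, was at 17.63, 23.1 and 25.89 TPM in GC-WT mice and at 9.48, 18.1 and 22.27 TPM in FL-WT mice. Only 2 of 6 FL-WT mice lay below every GC-WT mouse (-0.41 ± 0.15 SE, limma adjusted p = 0.0435), and the call was lost without FL-WT mouse 5 or mouse 6 and with both groups fitted alone (limma adjusted p = 0.123 for Trp53inp1). Groups without overlap were found for none of the 10 genes, where 4.19% of all tested genes lay lower without overlap. Bbc3 also passed, with -0.30 ± 0.14 SE (limma adjusted p = 0.0958), but in only 9 of 24 fits that left out a library in turn, and not with both groups fitted alone, with no filter or with a pseudocount of 0.1 (limma adjusted p = 0.108 with the last). After median-of-ratios scaling, where 13.6% of all tested genes were lower, none of the 3 passed, with -0.06 for Mdm2, -0.05 for Trp53inp1 and -0.06 for Bbc3 (limma adjusted p = 0.559, 0.778 and 0.689). Of the 8 members only Ccng1, cyclin G1, which brings a phosphatase to Mdm2, passed, and it was higher (0.28 ± 0.11 SE, limma adjusted p = 0.0735), where 20.6% of all tested genes were higher. With quantile normalization Ccng1 did not pass (0.21, limma adjusted p = 0.216).

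The same question was put to mice without Nrf2. In FL-KO vs. GC-KO, all 8 genes again had a log2 fold change below 0 at TPM as deposited, from -0.54 for Bbc3 to -0.09 for Mdm2, and 0 of the 8 were DEGs, where 2.13% of all tested genes were lower DEGs and 0% higher DEGs. Bbc3, Cdkn1a, Gadd45a and Sesn2 passed the adjusted p of limma and also had an unadjusted p under 0.05, all 4 lower, where 53.1% of all tested genes were lower and 0.299% higher. Without overlap, 0 members were higher at TPM as deposited, where 0.0323% of all tested genes were. The upper end of the 95% interval of the fold change was at most 1.17, and 1.47 after scaling. The 2 flight comparisons use different mice, and the difference between them was tested as an interaction. No member passed it in limma and none had an unadjusted p under 0.05, where 0.0162% of all tested genes passed it lower and 0% higher. The largest value was 0.32 for Mdm2 (95% interval -0.07 to 0.71, limma adjusted p = 1.0). After scaling no member passed it either, where 0.234% of all tested genes passed it lower and 0.0162% higher by the adjusted p and 0.0242% were DEGs, and Mdm2 was at 0.38 (unadjusted p = 0.00136 in limma, adjusted p = 0.153).

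Bbc3, Cdkn1a, Gadd45a and Sesn2 are taken in turn. Bbc3, the gene of the death protein PUMA, was at 0.89, 1.58 and 2.17 TPM in GC-KO mice and at 0.56, 0.69 and 1.11 TPM in FL-KO mice. Of 6 FL-KO mice, 5 lay below every GC-KO mouse, and the ratio of the mean TPM was 0.476 (log2 fold change -0.54 ± 0.14 SE, limma adjusted p = 0.00367). It was the only member that stayed lower after scaling, at -0.32 ± 0.09 SE (limma adjusted p = 0.0125), where 20.4% of all tested genes were lower. Gadd45a, a partner of PCNA in arrest and repair, was at 29.95, 34.7 and 50.62 TPM in GC-KO mice and at 22.25, 25.7 and 29.04 TPM in FL-KO mice. The groups did not overlap (-0.47 ± 0.14 SE, limma adjusted p = 0.012), as they did not for 18.4% of all tested genes in this direction, and after scaling the difference was -0.03 (95% interval -0.28 to 0.22). Cdkn1a was at 0.77, 1.25 and 1.86 TPM in GC-KO mice and at 0.64, 0.765 and 0.91 TPM in FL-KO mice, with 3 of 6 FL-KO mice below every GC-KO mouse. Its difference was -0.36 ± 0.14 SE (limma adjusted p = 0.0346), and -0.14 (95% interval -0.32 to 0.05) after scaling. Sesn2 was at 2.02, 2.35 and 4.27 TPM in GC-KO mice and at 1.41, 1.75 and 2.27 TPM in FL-KO mice. Sesn2 differed by -0.42 ± 0.16 SE (limma adjusted p = 0.0352), and by -0.12 (95% interval -0.32 to 0.09) after scaling. Its call at TPM as deposited was lost without GC-KO mouse 11 and with the GC and length trend removed (-0.20, limma adjusted p = 0.207).

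Other members turned their sign with the scaling in Nrf2-KO mice. Mdm2 went from -0.09 to 0.32 ± 0.07 SE (limma adjusted p = 0.00311), and after scaling all FL-KO mice lay above all GC-KO mice (exact permutation test, p = 0.00216), as they also did for Bax and for 5.98% of all tested genes. Bax, which opens the outer mitochondrial membrane in apoptosis, went from -0.16 to 0.26 ± 0.11 SE (limma adjusted p = 0.0663), and Ccng1 from -0.10 to 0.33 ± 0.11 SE (limma adjusted p = 0.0315). The 3 of 8 compare with 19.1% of all tested genes that were higher after scaling. After scaling 0 of the 8 members were DEGs, where 0.242% of all tested genes were. Hence the direction of flight in Mdm2, Bax and Ccng1 depends on whether TPM is taken as deposited or after median-of-ratios scaling.

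**Figure D2:**
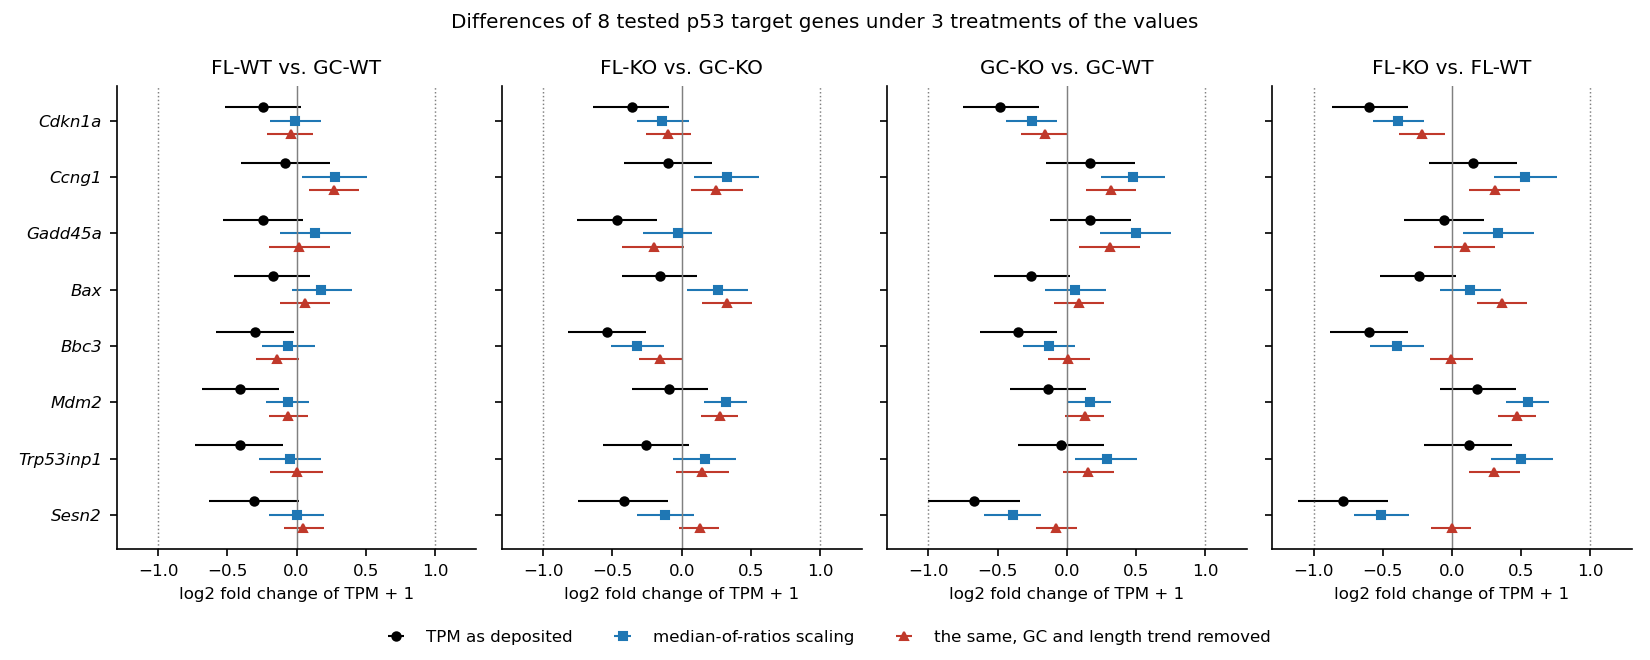
Log2 fold change of TPM + 1 of the 8 tested genes in the 4 comparisons, with the 95% interval from limma, at TPM as deposited (black circles), after median-of-ratios scaling (blue squares) and after this scaling with the trend in GC content and transcript length of each library removed (red triangles); dotted lines mark a fold change of 2. No point lies past a dotted line, and Cdkn1a in FL-KO vs. FL-WT lies below 0 with its interval under all 3.

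The 2 genotype comparisons asked whether the genes depend on Nrf2, on the ground and after flight. On the ground, 3 of 8 members fell in GC-KO vs. GC-WT by the adjusted p of limma and by an unadjusted p under 0.05, namely Bbc3, Cdkn1a and Sesn2, and 0 rose, where 42.9% of all tested genes were lower and 3.13% higher. None of the 8 was a DEG, where 3.04% of all tested genes were lower DEGs and 0.129% higher DEGs (0.808% in either direction after scaling, with 0 members). No member was without overlap, where 9.15% of all tested genes lay lower without overlap and 0.218% higher. In FL-KO vs. FL-WT the 3 members that passed were again Bbc3, Cdkn1a and Sesn2, all lower, where 47.2% of all tested genes were lower and 1.91% higher, and none was a DEG, where 8.36% of all tested genes were lower DEGs and 0.097% higher DEGs. These last 3 genes lie at a few TPM, where adding 1 shrinks a fold change. With 0.1 added in place of 1, all 3 counted as DEGs in FL-KO vs. FL-WT, at -1.03 for Bbc3, -1.01 for Cdkn1a and -1.04 for Sesn2, where 16% of all tested genes were lower DEGs with this pseudocount. Each comparison shares its mice with a flight comparison, so the values are set side by side and no overlap between comparisons is given.

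Cdkn1a was lower without Nrf2 both on the ground and in flight. It was at 1.57, 2.16 and 2.87 TPM in GC-WT mice, and 5 of 6 GC-KO mice lay below all of them (exact two-sided permutation test, p = 0.00433). The log2 fold change was -0.48 ± 0.14 SE (limma adjusted p = 0.00712) as deposited and -0.25 ± 0.09 SE (limma adjusted p = 0.0235) after scaling. In flight it was at 1.03, 1.52 and 2.89 TPM in FL-WT mice, and all 6 FL-KO mice lay below all FL-WT mice (exact two-sided permutation test, p = 0.00216), as was so for 20.6% of all tested genes. The ratio of the mean TPM was 0.443, and the log2 fold change was -0.60 ± 0.14 SE (limma adjusted p = 0.000763) as deposited and -0.39 ± 0.09 SE (limma adjusted p = 0.000908) after scaling.

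Sesn2, which encodes a sestrin that limits peroxides and mTORC1, was lower in both genotype comparisons. It was at 4.07, 5.02 and 5.94 TPM in GC-WT mice, and 5 of 6 GC-KO mice lay below all of them (-0.67 ± 0.16 SE, limma adjusted p = 0.00194; -0.39 ± 0.10 SE, limma adjusted p = 0.0024 after scaling). In FL-WT mice it was at 2.5, 3.81 and 6.01 TPM, and all 6 FL-KO mice lay below them, with a ratio of the mean TPM of 0.454 (-0.79 ± 0.16 SE, limma adjusted p = 0.000234; -0.51 ± 0.10 SE, limma adjusted p = 0.000142 after scaling). Both Nrf2-KO groups thus lay below the middle of their wild-type group. Bbc3 was at 1.86, 2.25 and 2.67 TPM in GC-WT mice and at 0.98, 1.57 and 2.48 TPM in FL-WT mice. It fell by 0.35 on the log2 scale in GC-KO mice (limma adjusted p = 0.0415), a call that was lost without GC-KO mouse 4, and by 0.60 in FL-KO mice (limma adjusted p = 0.000808), where 5 of 6 FL-KO mice lay below every FL-WT mouse. After scaling it was at -0.13 (limma adjusted p = 0.243) on the ground and -0.40 ± 0.09 SE (limma adjusted p = 0.00102) in flight.

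For Ccng1, Gadd45a, Mdm2, Trp53inp1 and Bax, a fall without Nrf2 was not called. At TPM as deposited none of them passed in either genotype comparison, and the 95% intervals were -0.15 to 0.49 for Ccng1, -0.12 to 0.46 for Gadd45a, -0.41 to 0.14 for Mdm2, -0.35 to 0.27 for Trp53inp1 and -0.53 to 0.02 for Bax on the ground. In flight they were -0.17 to 0.47 for Ccng1, -0.35 to 0.23 for Gadd45a, -0.09 to 0.46 for Mdm2, -0.20 to 0.43 for Trp53inp1 and -0.52 to 0.03 for Bax. After scaling, Ccng1, Gadd45a, Mdm2 and Trp53inp1 rose on the ground and in flight. On the ground their differences after scaling were 0.48, 0.50, 0.17 and 0.29 (limma adjusted p = 0.00171, 0.00235, 0.0694 and 0.0339). After flight they were 0.53, 0.33, 0.55 and 0.50 (limma adjusted p = 0.000404, 0.0232, 2.99e-06 and 0.000478). The 4 higher and 2 or 3 lower of 8 compare with 28.3% higher and 28.9% lower of all tested genes on the ground and with 31.9% higher and 32.9% lower in flight. Accordingly, members passed in both directions between the genotypes after scaling.

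Differences between the genotypes went along with the GC content of the gene. Among tested genes split into 10 equal groups by the GC content of their longest transcript, the median log2 fold change in FL-KO vs. FL-WT went from 0.02 in the group lowest in GC to -0.64 in the highest, and for genotype on the ground from 0.02 to -0.46. For flight in wild-type mice it stayed between -0.25 and -0.21, and for flight in Nrf2-KO mice it went from -0.21 to -0.44. The members that fell were rich in GC, with 65.2% for Bbc3, 58.7% for Sesn2 and 54.4% for Cdkn1a, as was Bax with 63.5%, and those that rose after scaling in both genotype comparisons were less so, with 38.8% for Trp53inp1, 40.8% for Ccng1, 46.2% for Mdm2 and 49.8% for Gadd45a. Bbc3 at -0.60, Sesn2 at -0.79 and Bax at -0.24 in FL-KO vs. FL-WT all belong to the group with a median of -0.64, and Cdkn1a at -0.60 to a group with -0.45. When each library was also freed of its dependence on GC content and transcript length after median-of-ratios scaling, a choice made after these values were seen, Sesn2 was at -0.00 (95% interval -0.15 to 0.14) and Bbc3 at -0.01 (95% interval -0.16 to 0.15) in FL-KO vs. FL-WT. Cdkn1a stayed lower, at -0.22 ± 0.08 SE (limma adjusted p = 0.0279), where 30.9% of all tested genes were lower, and it was at -0.16 (95% interval -0.33 to -0.00, limma adjusted p = 0.105) on the ground, where Ccng1 and Gadd45a were higher, as were 22.8% of all tested genes. Mdm2 at 0.47 ± 0.07, Bax at 0.36 ± 0.09, Ccng1 at 0.31 ± 0.09 and Trp53inp1 at 0.30 ± 0.09 (SE) were then higher in FL-KO than in FL-WT mice (limma adjusted p = 1.06e-05, 0.00181, 0.0069 and 0.00853), where 22.6% of all tested genes were higher. With both corrections 0 members were lower in flight in either genotype, while Ccng1 was higher in both, and Mdm2 and Bax were higher in FL-KO vs. GC-KO, where 24.4% of all tested genes were higher and 14% lower in wild-type mice and 17.6% higher in Nrf2-KO mice. The part of GC content in the differences was not tested further.

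**Figure D3:**
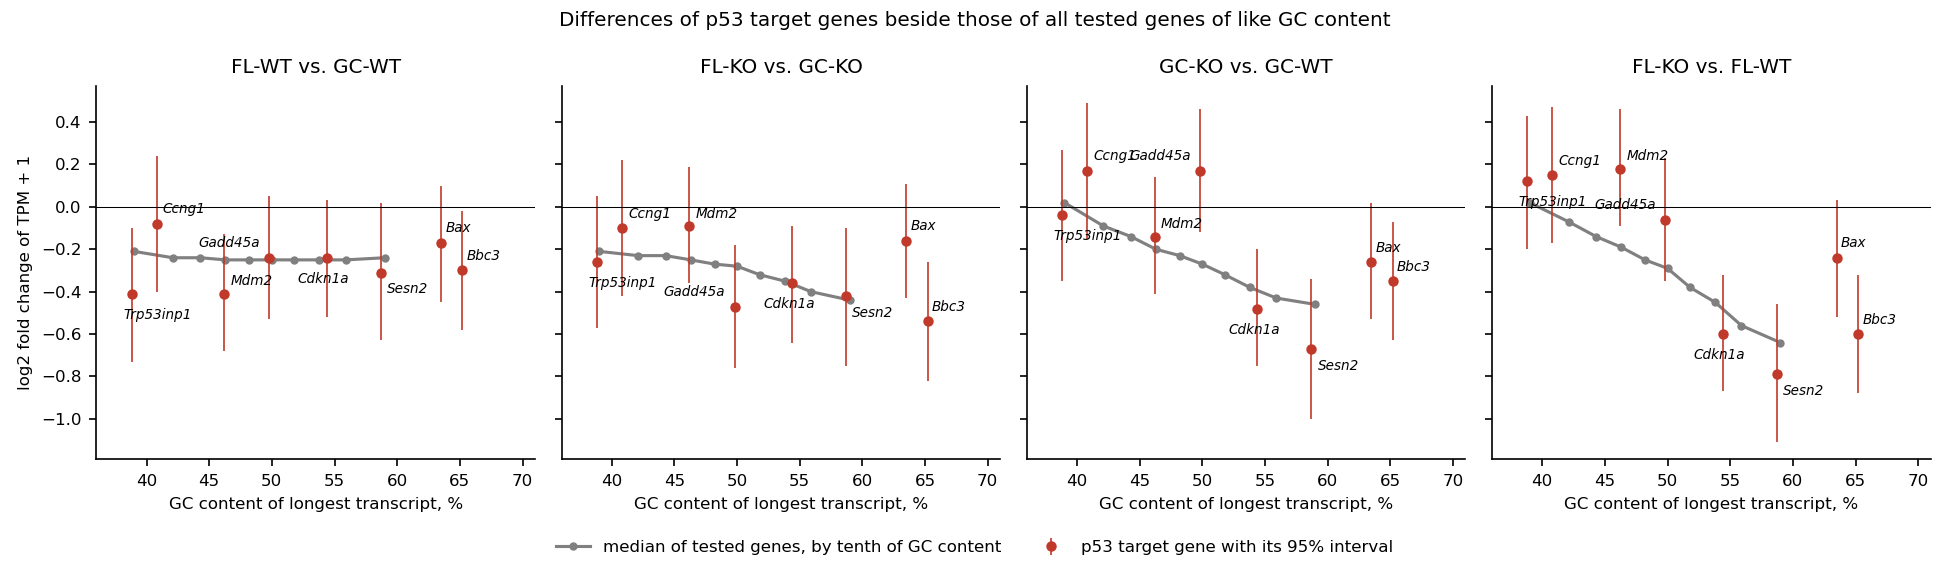
Log2 fold change of TPM + 1 as deposited against the GC content (%) of the longest transcript, for the 8 tested p53 target genes (red, with 95% interval) and for all tested genes as the median of 10 equal groups by GC content (grey line). In FL-KO vs. FL-WT the grey line goes from 0.02 to -0.64, and Sesn2, Bbc3 and Cdkn1a lie near it while Bax and Mdm2 lie above it.

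Phlda3, an inhibitor of AKT, and Zmat3, an RNA-binding zinc finger protein, lay under the filter of the test. Phlda3 was at 0.36, 0.465 and 0.63 TPM in GC-WT mice, 0.2, 0.42 and 0.64 TPM in FL-WT mice, 0.31, 0.375 and 0.53 TPM in GC-KO mice and 0.17, 0.2 and 0.3 TPM in FL-KO mice. Zmat3 was at 0.25, 0.49 and 0.61 TPM in GC-WT mice, 0.19, 0.275 and 0.47 TPM in FL-WT mice, 0.19, 0.245 and 0.32 TPM in GC-KO mice and 0.09, 0.155 and 0.18 TPM in FL-KO mice. Both were lowest in FL-KO mice, which lay entirely below GC-KO mice for both genes and below FL-WT mice for Zmat3 (exact two-sided permutation test, p = 0.00216 for each), as was so for 18.4% and 20.6% of all tested genes against GC-KO and FL-WT mice. After scaling all of these pairs of groups overlapped. Without the filter, 28248 genes were tested at TPM as deposited. Zmat3 was then lower for flight in wild-type mice and for genotype on the ground and after flight (limma adjusted p = 0.0317, 0.00561 and 0.0208). Its log2 fold changes of TPM + 1 were -0.18, -0.23 and -0.17. Phlda3 was lower for flight in Nrf2-KO mice and for genotype after flight, at -0.19 and -0.22 (limma adjusted p = 0.0514 and 0.0195). The share of the 28248 genes called without the filter is not given here, so these calls have no background beside them.

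Trp53, the gene of p53 itself, was lower in both Nrf2-KO groups. It was at 13.76, 23.8 and 25.58 TPM in GC-WT mice, 10.12, 13.9 and 27.3 TPM in FL-WT mice, 5.91, 7.63 and 16.2 TPM in GC-KO mice and 2.89, 3.51 and 4.73 TPM in FL-KO mice. FL-KO mice lay below all mice of the other 3 groups. Of all tested genes, 18.4% lay lower without overlap in FL-KO than in GC-KO mice, and 20.6% in FL-KO than in FL-WT mice. Trp53 was a DEG for genotype on the ground (-1.20 ± 0.22 SE, limma adjusted p = 0.000436), for flight in Nrf2-KO mice (-1.10 ± 0.22 SE, limma adjusted p = 0.000603) and for genotype after flight (-1.85 ± 0.22 SE, limma adjusted p = 9.88e-07). In FL-WT vs. GC-WT it was at -0.45 (95% interval -0.90 to 0.00, limma adjusted p = 0.118), and the interaction did not pass (-0.65 ± 0.31 SE, limma adjusted p = 1.0). After scaling Trp53 was at -0.88 for genotype on the ground (limma adjusted p = 0.000391) and at -0.73 for flight in Nrf2-KO mice (limma adjusted p = 0.00167), under the fold change of 2 of a DEG, and at -1.52 for genotype after flight (limma adjusted p = 1.98e-07). With scaling and the GC and length trend removed, it was still lower in FL-KO vs. FL-WT, at -1.23 ± 0.13 SE (limma adjusted p = 3.8e-07). Mdm4, the relative of Mdm2 that blocks p53 at its targets, was at 11.6 ± 1.68 TPM in GC-WT mice and at 8.03 ± 2.24 TPM in FL-WT mice (SD, n = 6 for each; -0.51 ± 0.16 SE, limma adjusted p = 0.0202), and at -0.16 (95% interval -0.35 to 0.03) after scaling. Usp7, which takes ubiquitin off Mdm2 and p53, was at 23.25, 30.3 and 40.91 TPM in GC-WT mice and 11.81, 16.7 and 25.02 TPM in FL-WT mice, and at 16.28, 21.1 and 32.36 TPM in GC-KO mice and 7.63, 9.28 and 13.26 TPM in FL-KO mice. It fell in flight in both genotypes, at -0.83 ± 0.18 SE in wild-type mice (limma adjusted p = 0.00192) and as a DEG at -1.10 ± 0.18 SE in Nrf2-KO mice (limma adjusted p = 8.36e-05), and also after scaling, at -0.46 and -0.69 (limma adjusted p = 0.0017 and 4.99e-05).

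**Figure D4:**
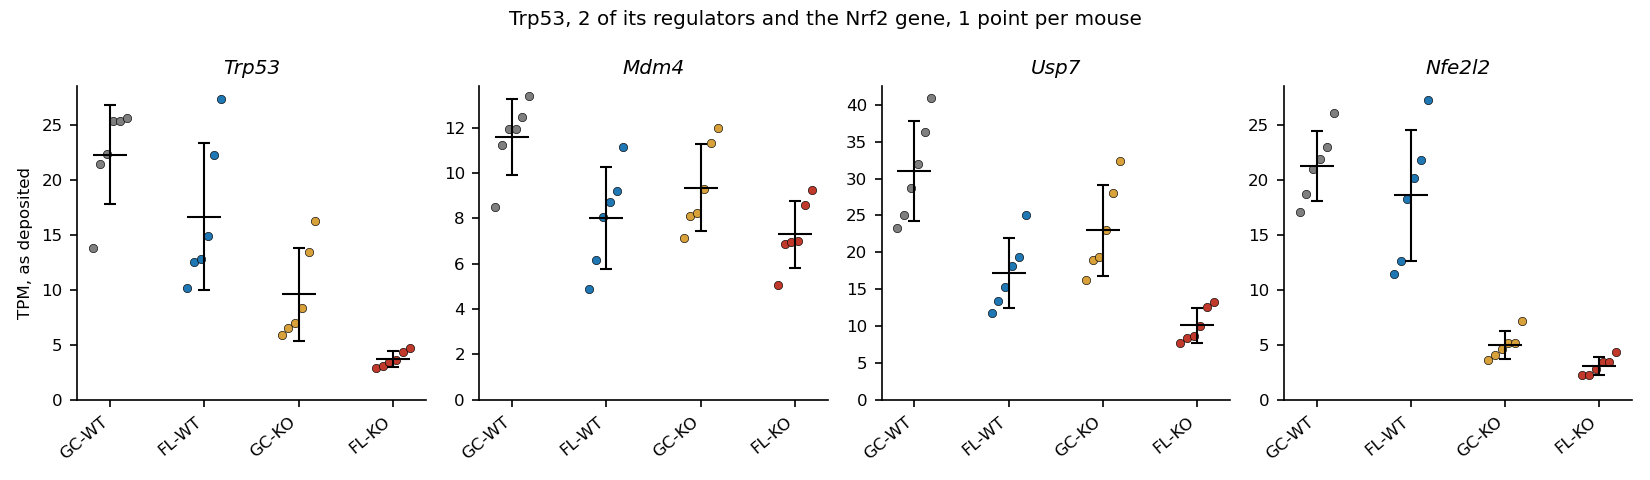
TPM as deposited (linear axis from 0) of Trp53, Mdm4, Usp7 and Nfe2l2 in the 4 groups, with 1 point for each mouse and the mean ± SD of 6 mice. Trp53 is at 3.67 ± 0.714 TPM in FL-KO mice against 16.7 ± 6.66 TPM in FL-WT mice, and Nfe2l2 separates both Nrf2-KO groups from both wild-type groups.

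Other genes of the pathway are described by counts. Of 33 further p53 targets 25 were tested, and by the adjusted p of limma 9 were lower and 1 higher for flight in wild-type mice, 12 and 0 for flight in Nrf2-KO mice, 11 and 1 for genotype on the ground and 15 and 0 for genotype after flight, with medians of -0.20, -0.26, -0.21 and -0.25 beside -0.24, -0.29, -0.22 and -0.25 for all tested genes. Among all tested genes 39%, 53.1%, 42.9% and 47.2% were lower in this order of comparisons. After scaling, 6, 5, 5 and 8 of the 25 were lower and 5, 5, 8 and 8 higher, where 13.6%, 20.4%, 28.9% and 32.9% of all tested genes were lower and 20.6%, 19.1%, 28.3% and 31.9% higher. Gtse1, which holds p53 back in G2, was the only DEG of them, between FL-WT and FL-KO mice (limma adjusted p = 7.47e-05; log2 fold change -0.75 after scaling), from 3.95 ± 1.61 to 1.39 ± 0.36 TPM (SD, n = 6 for each). Of 13 tested regulators of p53, 6, 8, 4 and 6 were lower in the same order of comparisons and 0 higher at TPM as deposited, and 4, 4, 3 and 4 were lower and 3, 0, 4 and 4 higher after scaling. Of 18 tested genes of the BCL2 family and the apoptosome, 3, 7, 6 and 10 were lower and 0, 1, 1 and 2 higher at TPM as deposited, whereas after scaling 1, 3, 3 and 4 were lower and 9, 10, 8 and 6 higher, so that the more frequent direction turned. Bak1, the partner of Bax in opening mitochondria, was at 14.7 ± 4.77 TPM in FL-WT mice and at 6.05 ± 0.925 TPM in FL-KO mice (SD, n = 6 for each; -1.11 ± 0.18 SE, limma adjusted p = 1.92e-05; -0.76 after scaling). Of 10 tested paralogues of the members, 2, 4, 5 and 5 were lower and 0 higher at TPM as deposited, and 0, 0, 2 and 4 were lower and 3, 1, 3 and 4 higher after scaling. Trp53inp2, the relative of Trp53inp1, was at 8.85 ± 3.53 TPM in FL-WT mice against 2.2 ± 0.423 TPM without Nrf2 (SD, n = 6 for each; -1.55 ± 0.21 SE, limma adjusted p = 2.51e-06; -1.26 after scaling).

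Genes that sense and mend DNA breaks and genes of mitosis were mostly lower in flight at TPM as deposited. Of 20 tested genes of the break response, 15 were lower in flight in wild-type mice and 18 in Nrf2-KO mice by limma's adjusted p. In flight 0 were higher, with medians of -0.41 and -0.43, where 39% and 53.1% of all tested genes were lower. For genotype on the ground and after flight, 6 and 8 of the 20 were lower, where 42.9% and 47.2% of all tested genes were. After scaling, 8 and 11 of the 20 were lower in flight and 1 higher in each, where 13.6% and 20.4% of all tested genes were lower. For genotype on the ground and after flight, 3 and 3 were then lower and 7 and 4 higher. Of all tested genes, 28.9% and 32.9% were lower and 28.3% and 31.9% higher in these genotype comparisons. H2afx, the histone variant that is phosphorylated at breaks, was at 422.0 ± 42.2 TPM in GC-KO mice and at 203.0 ± 34.7 TPM in FL-KO mice (SD, n = 6 for each; -1.06 ± 0.16 SE, limma adjusted p = 4.48e-05; -0.61 after scaling). In FL-WT vs. GC-WT H2afx was not called, at -0.32 as deposited (limma adjusted p = 0.135) and at 0.07 after scaling (limma adjusted p = 0.766). Parp1, which marks breaks with ADP-ribose, was at 8.29 ± 3.57 TPM in FL-WT mice and at 3.07 ± 0.804 TPM in FL-KO mice (SD, n = 6 for each; -1.13 ± 0.19 SE, limma adjusted p = 3.51e-05; -0.82 after scaling). Of 10 mitotic genes that p21 is known to repress, 9 and 10 were lower in the flight comparisons of wild-type and Nrf2-KO mice, and 6 and 7 after scaling, with 0 higher. Between the genotypes, on the ground and after flight, 2 and 3 of the 10 were lower and 0 higher as deposited. After scaling, 2 and 3 were lower and 5 and 2 higher there. Mki67, a marker of dividing cells, went from 104.0 ± 29.7 TPM in GC-WT mice to 48.1 ± 13.7 TPM in FL-WT mice (SD, n = 6 for each; -1.10 ± 0.21 SE, limma adjusted p = 0.000706; -0.72 after scaling), and all FL-WT mice lay below all GC-WT mice, as was so for 4.19% of all tested genes. Plk1, a mitotic kinase, was at 9.88 ± 3.72 TPM in GC-KO mice and fell to 3.6 ± 0.839 TPM with flight (SD, n = 6 for each; -1.19 ± 0.21 SE, limma adjusted p = 0.000163; -0.82 after scaling). No test compared these lists with each other or with all genes.

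Markers of several cell types moved with the same comparisons. In FL-WT vs. GC-WT, 10 of 10 B progenitor markers and 6 of 9 erythroid markers were lower by the adjusted p of limma. There 6 of 8 megakaryocyte markers were lower too, and 4 of 7 mature neutrophil markers were higher. Of all tested genes, 39% were lower and 0.994% higher. After scaling, 7 B progenitor, 6 erythroid and 2 megakaryocyte markers were lower, and 2 erythroid and 5 mature neutrophil markers were higher. Of all tested genes, 13.6% were then lower and 20.6% higher. With flight in Nrf2-KO mice, 10 of 10 B progenitor, 8 of 8 megakaryocyte and 7 of 9 erythroid markers were lower, where 53.1% of all tested genes were. After scaling, 7, 6 and 6 of these were lower and 1 erythroid marker was higher. Of all tested genes, 20.4% were then lower and 19.1% higher. For genotype after flight, 5 of 6 secondary granule, 5 of 7 mature neutrophil, 5 of 8 monocyte and macrophage, 5 of 7 T and NK, 5 of 10 B progenitor and 4 of 6 tested stem and progenitor markers were lower. Of all tested genes, 47.2% were lower. After scaling, 4, 3, 3, 1, 2 and 3 markers of these lists were lower and 1, 2, 0, 1, 0 and 1 higher. Of all tested genes, 32.9% were then lower and 31.9% higher. In this comparison, of 9 erythroid markers 4 were lower and 1 higher as deposited, and 3 lower and 5 higher after scaling. As deposited, 4 of 8 megakaryocyte, 2 of 5 promyelocyte and 2 of 4 tested plasma cell markers were also lower, and 0 higher. After scaling, 2, 2 and 1 of these were lower and 0, 1 and 1 higher. The summed level of the 10 B progenitor markers was 177.0 to 250 TPM in GC-WT mice, 86.1 to 218.0 in FL-WT mice, 117.0 to 177.0 in GC-KO mice and 69.9 to 114.0 in FL-KO mice. The 7 mature neutrophil markers summed to 24400 to 48700 TPM in GC-WT mice, 39100 to 54300 in FL-WT mice, 37200 to 57300 in GC-KO mice and 45300 to 61800 in FL-KO mice, and the 9 erythroid markers matched of 10 to 50800 to 121000, 88100 to 121000, 99400 to 148000 and 93700 to 136000 TPM in the same order of groups. In GC-KO vs. GC-WT, 4 of 6 tested stem and progenitor markers were lower, and 3 after scaling, where 42.9% and 28.9% of all tested genes were. There 6 of 10 B progenitor markers were lower, and 5 after scaling. Of 9 erythroid markers, 3 were lower and 2 higher, and 0 lower and 5 higher after scaling. Of all tested genes, 3.13% were higher, and 28.3% after scaling. As deposited, 3 of 6 secondary granule, 3 of 7 mature neutrophil, 3 of 8 monocyte and 2 of 5 promyelocyte markers were lower. So were 2 of 8 megakaryocyte, 2 of 7 T and NK and 1 of 4 plasma cell markers. Of mature neutrophil markers, 2 were higher. All 8 stem and progenitor markers summed to 34.5 to 52.3 TPM in GC-WT mice, 23.1 to 52.1 in FL-WT mice, 24.9 to 39.7 in GC-KO mice and 19.9 to 27.5 in FL-KO mice. The 8 megakaryocyte markers summed to 97.6 to 321.0 TPM in GC-WT mice, 51.2 to 170.0 in FL-WT mice, 107.0 to 196.0 in GC-KO mice and 33.6 to 146.0 in FL-KO mice. Secondary granule markers summed to 7490 to 14200 TPM in FL-WT mice and 5440 to 7700 in FL-KO mice, and monocyte and macrophage markers had a median sum of 578.0 TPM in FL-WT mice and 332.0 TPM in FL-KO mice. No marker of these lists was at 0 in every library. Their part in the differences of the p53 targets was not tested.

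Members also went along with each other to different degrees among mice of the same group. Correlations were taken over the 24 libraries after the median of each library and the mean of each group were removed, and are given as a description. Ccng1 and Trp53inp1 had the highest Pearson's r of the 28 pairs at 0.87, and Mdm2 had 0.73 with Trp53inp1 and 0.69 with Ccng1. Bax and Gadd45a had 0.57, Cdkn1a and Sesn2 0.36, and Mdm2 and Sesn2 the lowest at -0.58. These points share libraries, and Ccng1, Trp53inp1 and Mdm2 all lie in the lower part of the range of GC content. The genes most like Gadd45a among 5024 with a mean of at least 5 TPM were Trim10 at 0.93, Hagh at 0.92, and Hscb, Isg20 and Smox at 0.91 each. Those most like Cdkn1a among 5025 were less close, with Ifitm1 at 0.70, the class I histocompatibility genes H2-K1 at 0.63 and H2-D1 at 0.60, Morf4l1-ps1 at 0.60 and Herpud1 at 0.59.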

How the data were processed

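RNA of frozen bone marrow cells was measured in 24 mice, and groups were taken from the sample labels, which give each mouse a number. The authors used ISOGEN-LS, the MGIEasy directional kit and the DNBSEQ-G400, then STAR 2.6.1 with mm10 and RSEM 1.3.1, whose annotation and strand setting are not given in the sources used here. The deposited values are TPM, with column sums of 999999.5 to 1000001.1. As no counts were used, counting error is unknown. The p-values rest on differences between libraries. With 1 library for each mouse, variation between mice and error of measurement cannot be told apart in them.

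IDs were named with GENCODE M21 on GRCm38, which held 54723 of 54752 IDs without their version. There Cdkn1a, Bax, Sesn2 and Gadd45a overlap another annotated gene, and their TPM may be shared with it. For 12373 genes above 1 TPM in at least 1 library, log2(TPM + 1) was fitted with limma 3.58.1 (R 4.3.3) on all 4 groups, and p-values were adjusted over these genes. Adding 1 understates fold changes of low genes. Ranks of 6 against 6 mice were permuted exactly over 924 splits. Python 3.11.15 served for the rest (pandas 2.3.3; scipy 1.17.1), and the fit was tested on simulated data. Promoters are from RefSeq on GRCm38.p6.

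The members and gene lists were chosen with earlier results of these data known. Besides the members, Nfe2l2, Trp53 and Mdm4, the text names the DEGs of each list (at most 4) and the 5 genes most like Cdkn1a and most like Gadd45a. Alternatives were a pseudocount of 0.1, no filter, a filter on at least 6 libraries, median-of-ratios scaling, quantile normalization, a trend of the variance, each comparison fitted by itself, a threshold of 0.05, no fold threshold, a block of mouse numbers, leaving out 5 small RNAs (6 gene IDs, as Rmrp has 2), removing the trend with GC content and length, and leaving out each library. Removing that trend after median-of-ratios scaling was added once the data had been seen.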

Additional observations from a re-analysis of the deposited data

Results flagged for a closer look

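Among 44 groups of 6 mice (the 10 p53 targets and Trp53, each in 4 groups), 1 held a mouse far from the others by Dixon's test. Trp53 in GC-WT mouse 10 was at 13.76 TPM, while the next GC-WT mouse was at 21.41 and the highest at 25.58 TPM, so that the gap made up 0.647 of the range. Chance flags about 1 in 20 such groups.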

How the results depend on the processing

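The count of 0 members as DEGs held in each of the 4 comparisons and the interaction under the alternatives run, with these exceptions. Without the fold threshold, 3, 4, 3 and 3 members passed (flight in wild-type mice, flight in Nrf2-KO mice, genotype on the ground and genotype after flight), and with a pseudocount of 0.1, 3 members passed for genotype after flight. Leaving out each library gave 0 in every fit. The median of the members relative to all genes moved to -0.20, -0.17, -0.17 and -0.18 without a filter and, for flight in Nrf2-KO mice, to 0.14 with both corrections (scaling and the removed GC and length trend, chosen after the data were seen), and ran from -0.05 to -0.01, -0.05 to -0.01, 0.00 to 0.09 and 0.06 to 0.14 when a library was left out. Without a filter, all genes means 28248 genes in place of 12373. Fold changes of the 8 tested members stayed the same, as with -0.41 for Mdm2 and -0.08 for Ccng1 for flight in wild-type mice. These 8 members therefore did not fall further without the filter.

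Signs turned as follows, and the cause was not tested. With median-of-ratios scaling, flight in wild-type mice gave Bax 0.18, Ccng1 0.28 and Gadd45a 0.13, flight in Nrf2-KO mice Bax 0.26, Mdm2 0.32, Ccng1 0.33 and Trp53inp1 0.17, genotype on the ground Bax 0.06, Mdm2 0.17 and Trp53inp1 0.29, genotype after flight Bax 0.13 and Gadd45a 0.33, and the interaction Ccng1 0.05. With quantile normalization these were Bax 0.12, Ccng1 0.21 and Cdkn1a 0.00, then Bax 0.23, Mdm2 0.31, Ccng1 0.28 and Trp53inp1 0.11, then Bax 0.08, Mdm2 0.21 and Trp53inp1 0.27, then Bax 0.19 and Gadd45a 0.32, and Ccng1 0.07 for the interaction. Without 5 small RNAs, flight in Nrf2-KO mice gave Bax 0.01, Mdm2 0.08 and Ccng1 0.08, genotype after flight Gadd45a 0.02, and the interaction Ccng1 0.18 and Sesn2 0.02. With the GC and length trend removed, Gadd45a was at -0.01 for genotype on the ground, Ccng1 at -0.07 and Trp53inp1 at -0.08 for genotype after flight, and Sesn2 at 0.04 for the interaction. With both corrections, flight in wild-type mice gave Bax 0.06, Ccng1 0.27, Trp53inp1 0.00, Sesn2 0.05 and Gadd45a 0.02, flight in Nrf2-KO mice Bax 0.33, Mdm2 0.28, Ccng1 0.25, Trp53inp1 0.15 and Sesn2 0.13, genotype on the ground Bbc3 0.01, Bax 0.09, Mdm2 0.13 and Trp53inp1 0.15, genotype after flight Bax 0.36 and Gadd45a 0.09, and the interaction Sesn2 0.07.

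Leaving out a library turned the sign of the interaction for Bax (-0.08 to 0.09) and Ccng1 (-0.15 to 0.09), of Ccng1 for flight in wild-type mice (-0.19 to 0.05), and of Trp53inp1 for genotype after flight (-0.03 to 0.20) and on the ground (-0.11 to 0.01). Of 1376 recomputed fold changes, 1299 kept their sign and their side of the thresholds. Mouse numbers shared by ground and flight mice did not pair the samples: deviations of same-numbered mice correlated at -0.0265 to 0.273, and not every mouse correlated best with its own number. With the number as a block, 0 members were DEGs, and 5 in place of 3 members passed the adjusted p for flight in wild-type mice and 4 as before in Nrf2-KO mice. The genotype groups share no numbers. By the adjusted p, 3 to 5 members were lower for flight in Nrf2-KO mice, 2 to 4 for genotype on the ground and 3 to 4 for genotype after flight when a library was left out. Without 5 small RNAs 5 in place of 3 were lower on the ground, and for genotype after flight Mdm2 was also called higher. With the GC and length trend removed Bbc3 was not called in either genotype comparison, and Sesn2 was not called for flight in Nrf2-KO mice. Trp53inp1 was also lower for flight in Nrf2-KO mice with this trend removed (limma adjusted p = 0.0939) and with both groups fitted alone. Depth is unknown, so it sets no limit that could be given here, and Phlda3 and Zmat3 lay under the filter.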
